A study of Mus musculus with 2 samples.

Results

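Mir183, Mir96 and Mir182 are 3 microRNA (miRNA) genes that sit together on mouse chromosome 6, and their levels are described here in embryonic neural tube. They were found among the 1973 miRNA genes of the count tables by their Ensembl identifiers, so that 3 of 3 were present. The rule used no measured value, but the members were chosen with earlier results of these data known. The tissue was neural tube, the structure that becomes brain and spinal cord, taken from healthy embryos of the strain B6NCrl at 15.5 days with males and females pooled. There was 1 group of 2 biological replicates, each 1 library from a pool of embryos, called pool 1 and pool 2 below. Pool 1 was made from 78 embryos and pool 2 from 62 embryos, so each value is an average over a pool and no single embryo can be seen. No treatment, genotype or time was compared, and p-values below compare these 2 pools and no conditions.

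A miRNA is a short RNA cut from a hairpin precursor. It guides a silencing complex to messenger RNAs, mainly through its seed, bases 2 to 8 from the 5′ end. Mir183, Mir96 and Mir182 are made from 1 primary transcript and are best known from sensory cells, among them hair cells of the inner ear, photoreceptors of the retina and neurons of the dorsal root ganglia. Changes in the seed of Mir96 cause hearing loss in mice and in people.

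The mature RNAs of the 5′ arms carry the family likeness and are shown first, with the seed in capitals, as RefSeq gives them on GRCm38.p6. The fourth sequence is the other mouse miRNA of the RefSeq table that has the seed of miR-96-5p.
mmu-miR-183-5p: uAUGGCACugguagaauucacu
mmu-miR-96-5p: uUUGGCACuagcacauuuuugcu
mmu-miR-182-5p: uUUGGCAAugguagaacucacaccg
mmu-miR-1271-5p: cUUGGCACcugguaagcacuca

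Counting from 1 at the 5′ end, the seed of miR-96-5p differs from that of miR-182-5p by C8A and from that of miR-183-5p by U2A. Between miR-182-5p and miR-183-5p the seed differs at both places, by U2A and A8C. Bases 2 to 7 are thus the same in miR-96-5p and miR-182-5p, and 3 of the 1738 mature sequences in the table have them. The seed of miR-183-5p is found in 1 of the 1738, miR-183-5p itself. Over the whole mature sequence the closest pair is another one. miR-182-5p and miR-183-5p match at 18 of 22 positions (81.8%) and share the run UGGUAGAA, against 12 of 23 (52.2%) between miR-96-5p and miR-182-5p and 13 of 22 (59.1%) between miR-96-5p and miR-183-5p. Outside the seed alone, 13 of 15 positions match between miR-182-5p and miR-183-5p, 6 of 16 between miR-96-5p and miR-182-5p and 7 of 15 between miR-96-5p and miR-183-5p. The 3′ arms are much less alike, with 31.8% to 33.3% of positions matching.

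The counts are per gene, so reads from both arms of a hairpin are added up and cannot be told apart. The 3 hairpins are shown for that reason, with both mature arms in capitals, 5′ arm first.
Mir183: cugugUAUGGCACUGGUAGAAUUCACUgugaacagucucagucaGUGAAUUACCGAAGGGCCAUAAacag
Mir96: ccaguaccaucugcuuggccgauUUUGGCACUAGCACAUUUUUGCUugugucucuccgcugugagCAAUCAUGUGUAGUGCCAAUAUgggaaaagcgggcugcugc
Mir182: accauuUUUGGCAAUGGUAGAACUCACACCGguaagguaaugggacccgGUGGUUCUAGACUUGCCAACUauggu

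All 3 genes lie on the minus strand of chromosome 6 on mm10, and Mir183 comes first in the direction of transcription. Mir183 (ENSMUSG00000065619.2) takes positions 30169668 to 30169737, Mir96 (ENSMUSG00000065586.1) 30169446 to 30169551 and Mir182 (ENSMUSG00000076361.1) 30165918 to 30165992. The gap between Mir183 and Mir96 is 116 bases and that between Mir96 and Mir182 is 3453 bases. GENCODE M21 puts them in no other gene: they are intergenic, 12459 bases from Nrf1, which codes for a transcription factor, and 41551 bases from Ube2h, which codes for a ubiquitin-conjugating enzyme. The nearest gene is Rncr4, a long non-coding RNA first known from retina, which starts 3155 bases away on the opposite strand.

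Reads that aligned to several places, 29.4% in pool 1 and 29.7% in pool 2, were assigned to no gene. The longest stretch that any of the 3 precursors shares with another annotated miRNA precursor, on either strand, is 14 bases for Mir183 and 11 bases each for Mir96 and Mir182. Each of their 6 mature sequences occurs in 1 annotated precursor. Copies elsewhere in the genome were not looked for. Sense counts in miRNA genes came to 4228685 in pool 1 and 6039889 in pool 2. Levels are given as CPM, counts scaled to an equal total of sense counts in both pools, and errors are SD over both pools (n = 2). A read covers a whole mature miRNA, so CPM is not divided by gene length.

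In CPM the 3 genes fell into 2 high ones and 1 lower one. How well each sequence enters a library was not measured, and an unevenness shared by both pools would not show in the SD. Ratios between different miRNAs here are therefore ratios of counts and need not be ratios of their amounts in the tissue. Mir182 had 4499 CPM in pool 1 and 3837 CPM in pool 2, from 19026 and 23177 counts. Mir183 had 3564 CPM in pool 1 and 3491 CPM in pool 2, from 15073 and 21088 counts. Mir96 had 1267 CPM in pool 1 and 1189 CPM in pool 2, from 5357 and 7180 counts. The order Mir182, Mir183, Mir96 was the same in both pools, and the values of the 3 genes did not overlap. Mean levels were 4168 ± 468 CPM for Mir182, 3528 ± 51.6 CPM for Mir183 and 1228 ± 55.2 CPM for Mir96. The gap of Mir182 over Mir183 in pool 2 was smaller than the SD of Mir182, whereas Mir96 lay far below both. The log2 ratio of Mir182 to Mir96 averaged 1.76 ± 0.098 and that of Mir182 to Mir183 averaged 0.24 ± 0.14 (SD, n = 2). An exact sign-flip permutation test of such a ratio over 2 pools cannot go below a two-sided p of 0.5.

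**Figure D1:**
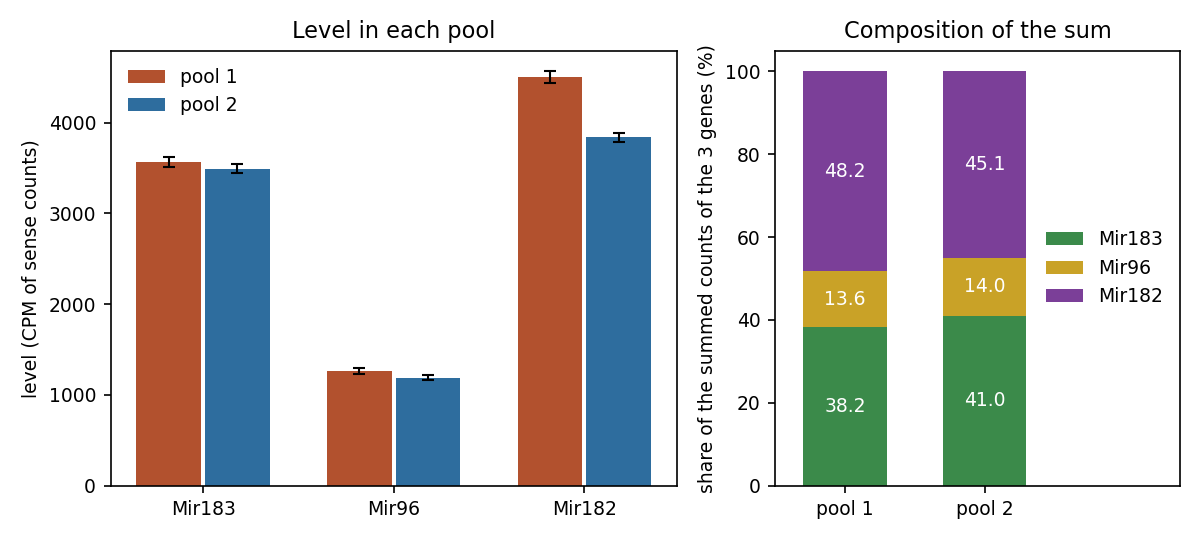
Left, level of each gene in pool 1 and pool 2 in CPM of sense counts, with 95% exact counting intervals as error bars; right, share of each gene in the summed counts of the 3 genes, in percent. Mir96 is the lowest in both pools, and Mir182 is the one with a visible gap between the pools, at 4499 CPM in pool 1 and 3837 CPM in pool 2.

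Among all 1973 genes Mir182 ranked 35 by mean CPM, Mir183 ranked 40 and Mir96 ranked 76. The ranks in pool 1 and pool 2 were 33 and 36 for Mir182, 41 and 40 for Mir183, and 76 and 78 for Mir96. Of the 363 genes with at least 10 counts in each pool, called detected below, 90.4% lay below Mir182, 89.0% below Mir183 and 79.1% below Mir96. The median detected gene had 136 CPM. Together the 3 genes held 0.933% of the sense counts of pool 1 (95% exact counting interval 0.924 to 0.942) and 0.852% of pool 2 (0.844 to 0.859). Counting intervals cover counting error only, since PCR-amplified reads without molecular identifiers are not independent molecules. In bulk tissue, fewer cells that make a miRNA and less of it in each cell cannot be told apart.

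The places of the 3 genes among their neighbours in this order were only partly sharp, since some neighbours changed side between the pools. Values are said to overlap where the ranges over both pools do. The values of Mir182 overlapped those of Mir93 and Mir181d just above it and Mir125a and Mir135b just below it. Within each pool Mir93 lay above Mir182, while Mir181d, Mir125a and Mir135b changed side between the pools. The values of Mir183 overlapped those of Mir381 above it and of Mir106b and Mir652 below it. Within each pool Mir381 lay above Mir183 and Mir652 below it, while Mir106b changed side. Mir744, with 3753 CPM in pool 1 and 3643 CPM in pool 2, lay above Mir183 without overlap. The values of Mir96 overlapped those of Mir107 above it and of Mir301 and Mir770 below it. Within each pool Mir107 lay above Mir96, while Mir301 and Mir770 changed side. Mir128-1, with 1272 CPM in pool 1 and 1278 CPM in pool 2, lay just clear above Mir96. The counts of Mir107 and Mir128-1 are uncertain, because their precursors share at least 20 bases with another.

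Grouped by seed, Mir96 and Mir182, which share bases 2 to 7, had 5766 CPM in pool 1 and 5026 CPM in pool 2 between them, against 3564 and 3491 CPM of Mir183. They made up 61.8% and 59.0% of the summed counts. The gene of miR-1271-5p, whose full seed is that of miR-96-5p, had 0 counts in both pools. With 3 counts as the most that a count of 0 allows in a pool, its level was at most 0.709 CPM in pool 1 and 0.497 CPM in pool 2. Mir96 was at least 1786-fold higher in pool 1 and at least 2393-fold higher in pool 2. Of the 3 genes of the table with bases 2 to 7 in common, Mir96 and Mir182 were the ones with counts. On the 3′ arm, miR-96-3p has the same seed as miR-3475-5p, the product of an X-linked gene, and both are shown with it in capitals.
mmu-miR-96-3p: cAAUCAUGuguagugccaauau
mmu-miR-3475-5p: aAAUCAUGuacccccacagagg
Mir3475 had 64.1 CPM in pool 1 and 80.0 CPM in pool 2, and how much of the Mir96 count came from its 3′ arm is not known from these tables.

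Mir182 was slightly higher in pool 1, and the other 2 genes did not pass the test. The pools were compared gene by gene with a two-sided exact binomial test on library sizes scaled by TMM, adjusted by the method of Benjamini and Hochberg over all 363 genes. By this test 49.9% of the detected genes differed at an adjusted p under 0.05, with 25.6% higher in pool 1 and 24.2% higher in pool 2, and of the 3 genes 1 did. Mir182 had a log2 ratio of pool 1 to pool 2 of 0.20, a 1.15-fold difference (95% exact counting interval 1.12 to 1.17; exact binomial test, adjusted p = 1.40e-42). Mir96 had a log2 ratio of 0.058, or 1.04-fold (1.00 to 1.08; exact binomial test, adjusted p = 0.0529). Mir183 had a log2 ratio of -0.0039, or 0.997-fold (0.977 to 1.02; exact binomial test, adjusted p = 0.893). With library sizes alone, Mir96 had a log2 ratio of 0.092 and passed (exact binomial test, adjusted p = 0.00121), and that of Mir183 was 0.030, so neither a call for Mir96 nor a direction for Mir183 can be read from these pools.

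That test takes account of counting error alone, and deep counts make small differences pass it. At 1000 CPM or more, 86.9% of 84 detected genes were called, and their median absolute log2 ratio was 0.13. The median absolute log2 ratio of all detected genes was 0.20, and 180 of the 363 had a larger one than Mir182. For Mir96 that number was 303 and for Mir183 it was 358. With the spread between the pools added (edgeR's exact test, with a coefficient of variation of 34.3% estimated from these same pools), 2.2% of the detected genes were called and none of the 3 genes was, each with an adjusted p of 1. With a smaller coefficient of variation of 17.5%, estimated without 18 genes of the 4 lists that differed most between the pools and chosen after seeing the data, 4.96% of the detected genes were called and again 0 of the 3. In both settings the spread holds the very difference under test, so a ratio near 1 could hardly be called. Neither result can show that the 3 genes were equal in the pools. Over all detected genes, a difference of the size of that of Mir182 was common, since 180 of the 363 had a larger absolute log2 ratio. Among the genes at 1000 CPM or more it was above the median of 0.13.

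**Figure D2:**
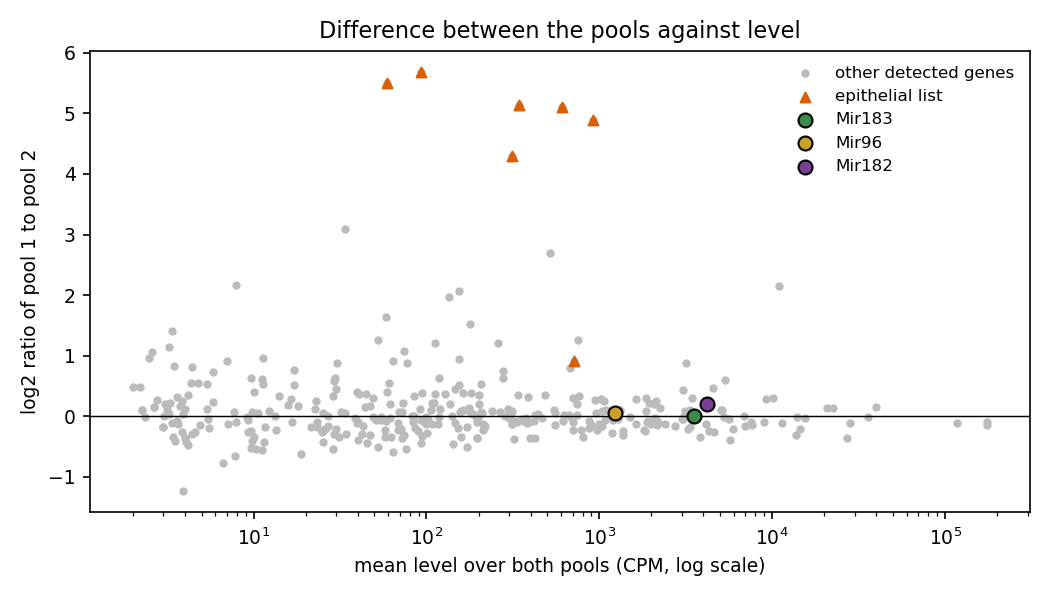
Log2 ratio of pool 1 to pool 2 against the mean level in CPM on a log scale, 1 point for each of the 363 detected genes. Mir183, Mir96 and Mir182 lie between -0.0039 and 0.20, while 6 of the 7 genes of the epithelial list lie above 4.

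The ratios between the 3 genes need no library size, and they shifted a little between the pools. Mir182 made up 48.2% of the summed counts in pool 1 (95% exact counting interval 47.7 to 48.7) and 45.1% in pool 2 (44.6 to 45.5). Mir183 made up 38.2% in pool 1 (37.7 to 38.7) and 41.0% in pool 2 (40.6 to 41.4). Mir96 made up 13.6% in pool 1 (13.2 to 13.9) and 14.0% in pool 2 (13.7 to 14.3). The share of Mir182 was higher in pool 1 and that of Mir183 was higher in pool 2, beyond counting error.

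There were 1.26 counts of Mir182 for each count of Mir183 in pool 1 and 1.10 in pool 2. The log2 difference was 0.20 (95% large-sample counting interval 0.16 to 0.24; two-sided Fisher's exact test, p = 3.23e-21 adjusted over the 3 pairs). For Mir182 over Mir96 the ratio was 3.55 in pool 1 and 3.23 in pool 2, a log2 difference of 0.14 (0.080 to 0.20; Fisher's exact test, adjusted p = 4.83e-06). For Mir183 over Mir96 it was 2.81 in pool 1 and 2.94 in pool 2, a log2 difference of -0.062 (-0.12 to -0.0026; Fisher's exact test, adjusted p = 0.0416). These tests compare the pools and take account of counting error alone. The difference of Mir183 over Mir96 was the smallest of the 3 in size. With its sign left aside, its interval overlapped that of Mir182 over Mir96, so their order is not sharp.

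Other miRNA genes that lie close together give a scale for these figures. Annotated miRNA genes on 1 strand, each within 10 kb of the next, formed 44 compact clusters with at least 2 detected genes. The highest gene of the cluster, Mir182, had 3.39 times the mean CPM of the lowest, Mir96, while the median over the 44 clusters was 17.8-fold. Of the 44, 10 had a smaller fold. In the 18 clusters without a detected gene that shares 20 bases with another precursor the median was 16.1-fold and 3 had a smaller fold. Of the 5 clusters with exactly 3 detected genes, the Mir183 cluster had the smallest fold, followed by 15.6-fold for Mir429, Mir200a and Mir200b and 22.2-fold for Mir25, Mir93 and Mir106b. The number of detected genes differs between the clusters, and the folds are a description of these pools.

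By summed level, 10 of the 44 clusters were higher than the 8924 ± 575 CPM of Mir183, Mir96 and Mir182. The log2 ratios of pool 1 to pool 2 spanned 0.20 within the cluster, against a median of 0.25 over the 44, and 19 of them had a smaller span. The shift of Mir182 against Mir183 was thus of the size seen within other clusters.

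**Figure D3:**
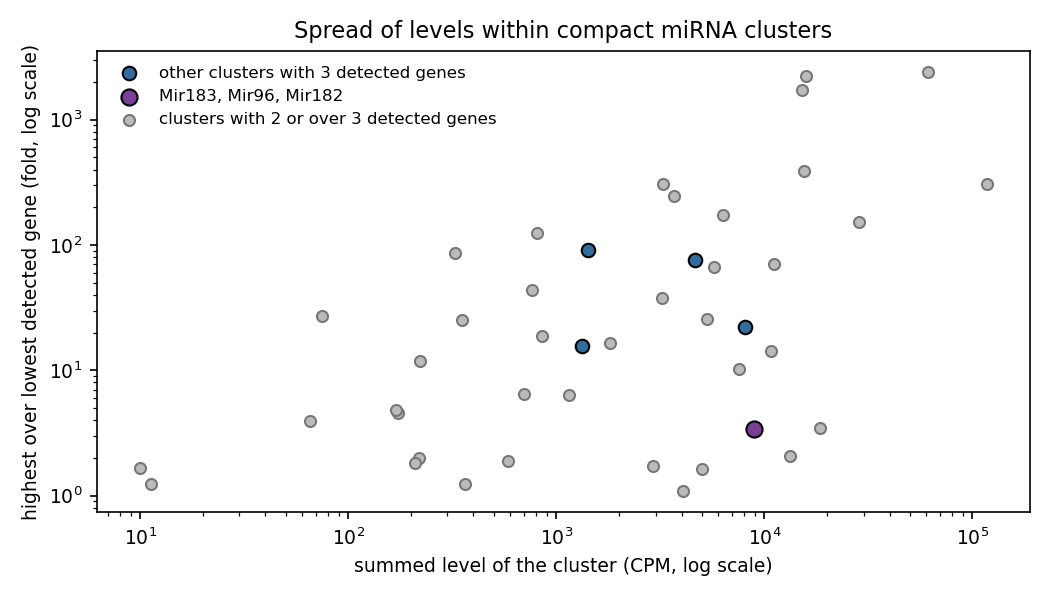
Fold between the highest and the lowest detected gene of a compact miRNA cluster against the summed level of the cluster in CPM, both on log scales, 1 point for each of 44 clusters. Mir183, Mir96 and Mir182 lie at 3.39-fold, below the other clusters with 3 detected genes.

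Mir183, Mir96 and Mir182 did not show the large differences between the pools seen in some other gene lists. Their sum was 9331 CPM in pool 1 and 8518 CPM in pool 2. Ratios here are TMM-scaled, unlike CPM, and so come out slightly lower than a quotient of CPM values. The scaled ratio of the sums was 1.07 (95% exact counting interval 1.06 to 1.08). The epithelial list (Mir200a, Mir200b, Mir200c, Mir141, Mir429, Mir203 and Mir205, known from epithelium and skin) had 5458 CPM in pool 1 and 631 CPM in pool 2, a log2 ratio of 3.08. Of its 7 genes 7 were called higher in pool 1, as were 25.6% of all detected genes. On the log2 scale the epithelial sum stood at -0.77 relative to the sum of the 3 genes in pool 1 and at -3.76 in pool 2. The part of epithelial RNA in the small excess of Mir182 was not tested.

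Lists of other non-neural cells differed to unlike degrees. The mesenchyme and smooth muscle list had a log2 ratio of 1.53, led by Mir143. Of its 6 detected genes 5 were called higher in pool 1 and 1 in pool 2, beside 25.6% and 24.2% of all detected genes. Of the 2 endocrine genes, Mir375 was called higher in pool 1, with 896 CPM in pool 1 and 136 CPM in pool 2, and Mir7-2 was called higher in pool 2, with 174 CPM in pool 1 and 218 CPM in pool 2. The 3 detected leukocyte genes had a log2 ratio of 0.84 as a list, with 2 called higher in pool 1 and Mir150, at 0.068, not called. Mir126a, the endothelial miRNA, had a log2 ratio of 0.13, the erythroid list one of 0.11 and Mir122, the liver miRNA, one of 0.20, beside 0.098 for the sum of the 3 genes. The precursors of Mir126a, of Mir7-2 and of 2 of the 3 erythroid genes share at least 20 bases with another. These lists are described by counts only, and the median log2 ratio of all detected genes was -0.0036.

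As sums, the neural lists had log2 ratios somewhat below 0. Single genes lay above 0 without being called: Mir138-1 at 0.050, Mir138-2 at 0.051, Mir129-1 at 0.12, Mir129-2 at 0.087 and Mir338 at 0.045. The other detected genes of these lists lay below 0. The neuron-enriched list held 12979 CPM in pool 1 and 13873 CPM in pool 2, a TMM-scaled log2 ratio of -0.13. Of its 15 detected genes 0 were called higher in pool 1, 6 higher in pool 2 and 9 not called, where 25.6% and 24.2% of all detected genes were called in these directions. The level of the list is uncertain, since 13 of its 18 genes share at least 20 bases with another precursor. Mir137, a miRNA of neurons and the most abundant of them, had 6615 CPM in pool 1 and 7220 CPM in pool 2, above Mir182 in both. Mir128-1, also known from neurons, was at 1275 ± 3.71 CPM, next to Mir96. Mir92b, known from neural progenitors, was at 1831 ± 186 CPM and Mir219a-2, known from oligodendrocytes, at 1814 ± 171 CPM, both between Mir183 and Mir96. They were the highest of their lists, and the other genes lay below Mir96. In the progenitor list, Mir9-3 had a mean of 380 CPM and Mir9-2 one of 0.934 CPM. In the oligodendrocyte list, Mir338 had 298 CPM and Mir219a-1 had 98.8 CPM. The precursors of Mir219a-2 and of these lower genes also share such a stretch. The neuronal Mir124a genes, named after their values were seen, had at most 17 counts in a pool. Their 3 precursors share at least 20 bases with another, so reads aligned to several places may be missing from their counts.

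The highest levels in the tables were those of Mir10a and Mir10b, miRNAs of the Hox gene clusters, which give cells their position from head to tail. With the 4 other genes of the Hox list they held 350863 CPM in pool 1 and 371833 CPM in pool 2. Position is not tissue type, so these levels do not check that the tissue was neural tube. Of the miRNAs of pigment epithelium and choroid plexus, Mir204 had 350 CPM in pool 1 and 441 CPM in pool 2, and Mir211 had 8 and 15 counts. No list of markers of sensory ganglia, inner ear or photoreceptors beyond the 3 genes themselves was used, so the cells that held them were not identified.

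**Figure D4:**
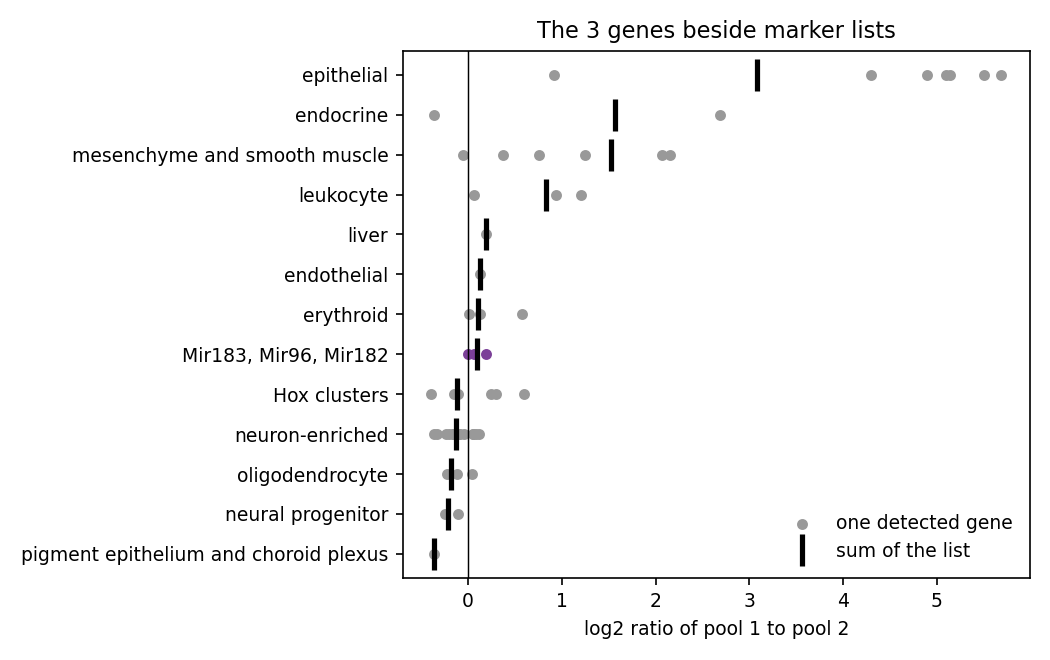
Log2 ratio of pool 1 to pool 2 for each detected gene (points) and for the summed counts (vertical bars) of Mir183, Mir96 and Mir182 and of 12 marker lists, ordered by the ratio of the sum. The sum of the 3 genes lies at 0.098, beside the erythroid list at 0.11 and the endothelial list at 0.13 and far from the epithelial list at 3.08.

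The pattern most like that of each gene was read from the log2 ratio alone, since 2 pools give no more. Among detected genes within 2-fold of its mean CPM, Mir182 was closest to Mir93, Mir423 and Mir18, whose log2 ratios were 0.18, 0.14 and 0.25. Mir96 was closest to Mir138-1, Mir15a and Mir154, at 0.050, 0.092 and 0.093. Mir183 was closest to Mir98, Mir130b and Mir411, at -0.0023, 0.0076 and -0.017. The precursors of Mir138-1 and Mir411 share at least 20 bases with another, so their counts are uncertain. There were 40, 54 and 46 such genes to choose from.

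Around the cluster on chromosome 6, other miRNA genes were not at like levels. Within 1 Mb on either side the tables hold 5 more. Mir335, which lies in the imprinted gene Mest at 30741299 to 30741396, was far higher, with 23637 CPM in pool 1 and 21044 CPM in pool 2. Mir29a, at 31062660 to 31062747, was lower, with 145 CPM in pool 1 and 91.2 CPM in pool 2. Its neighbour Mir29b-1 had 8 and 12 counts, and Gm26220 and Gm23049 had 0 counts in both pools. The last 3 precursors share at least 20 bases with another, so their counts are uncertain.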

How the data were processed

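The authors deposited 1 table of raw counts per library, for miRNA genes of GENCODE M4 on mm10, per the README file of each sample. How reads were trimmed, aligned and counted is not given in the sources used here. The columns of a table give counts without regard to strand and on each strand. The column used as sense was set by its place. Its total was larger than that of the opposite strand, at 4228685 against 77636 in pool 1 and 6039889 against 98084 in pool 2. The 4 leading entries name no gene, hold 45.7% and 47.7% of the 7925935 and 11738914 reads in pool 1 and pool 2, and count in no library size.

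GENCODE M21, which has the assembly of mm10, gave names and positions and matched 1894 of 1973 identifiers, and all 3 members matched with their version. TMM factors and the exact test came from edgeR 4.0.16 and other size factors from DESeq2 1.42.0 (R 4.3.3). The binomial and Fisher's exact tests, two-sided, used scipy 1.17.1 with a threshold of 0.05. The binomial comparison was run on simulated counts that held counting error only. Those counts cannot show how it behaves with a further spread between pools. Limits of detection are 3 counts. Alternatives were other library sizes, filters, strands, depths, pseudocounts and leaving out a library.

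Named genes are the members, genes sharing a seed, neighbours in position or level, the genes most like each member and leading genes of the marker lists. The members and lists were chosen with earlier results of these data known.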

Additional observations from a re-analysis of the deposited data

Results flagged for a closer look

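The precursor of Mir183 had 6 counts on the opposite strand in pool 2, above the 3 counts set as the limit of detection, which is why it is given here. In pool 1 it had 3 such counts, and the sense counts were 15073 in pool 1 and 21088 in pool 2. Mir96 had 0 counts on that strand in both pools, and Mir182 had 1 count in pool 1 and 0 in pool 2.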

How the results depend on the processing

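With 1 group of 2 pools, no difference between conditions and no outlier could be tested. No paired analysis was possible because there is 1 group only. Depth set no limit for the 3 genes, each with at least 5357 counts. Scaled to all reads of the tables, levels were 4680 CPM for the sum, 1849 for Mir183, 644 for Mir96 and 2187 for Mir182. Without the 3 most abundant genes, Mir10a, Mir10b and Mir99a, they were 16702, 6609, 2299 and 7794 CPM. Counts from both strands gave 3469 CPM for Mir183. Leaving out either pool in turn gave 8518 to 9331 CPM for the sum, 3491 to 3564 for Mir183, 1189 to 1267 for Mir96 and 3837 to 4499 for Mir182, and shares of 38.2% to 41.0%, 13.6% to 14.0% and 45.1% to 48.2%. The log2 ratio of Mir183 was 0.030 with library sizes alone and 0.0068 with pool 2 thinned to the depth of pool 1, both on the other side of 0 and not past the threshold. Mir96 passed the threshold, so that 2 genes were called, with library sizes alone (log2 ratio 0.092), DESeq2 size factors (0.062), a minimum of 100 counts (0.058) and the thinned pool (0.091). In these settings 47.1%, 48.5%, 63.3% and 45.6% of all genes tested were called. Over the other alternatives of the binomial test its adjusted p lay between 0.0529 and 0.0969. With edgeR's exact test 2.2% of detected genes were called. Of the 3 genes 0 were called, and the log2 ratio of Mir182 stayed at 0.20. The same held with a coefficient of variation of 17.5% estimated without 18 genes of the epithelial, endocrine, mesenchyme and leukocyte lists, a setting chosen after seeing the data, which called 4.96% of detected genes. The log2 differences of the ratios between the genes kept their direction and stayed past the threshold of the Fisher test with counts from both strands and with the thinned pool.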
